A study of Mus musculus with 6 samples.

Results

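The 9 genes described here encode the kinase that marks damaged mitochondria for removal and the receptors and adaptors that tie mitochondria to the growing autophagosome. They were taken by symbol from the deposited gene table: Pink1, Bnip3, Bnip3l, Fundc1, Fkbp8, Bcl2l13, Phb2, Optn and Sqstm1. All 9 were found among 22183 genes, and all 9 passed the filter on low counts that left 14432 genes tested. Messenger RNA was measured by sequencing in 6 mouse kidney libraries, 3 from mice given a plasmid for Wnt1 and 3 from mice given the empty vector pcDNA3 (control). Wnt1 is a secreted signal of the beta-catenin pathway, and the series title names mitophagy, ATF3 and the course from acute to chronic kidney disease as its subject. The Wnt1 group is labelled as overexpressing the gene and the other group as control, and the labels place all 6 libraries in batch 1. Strain, sex, age, any injury procedure, the time after plasmid delivery and the cells that took up the plasmid are not given in the labels. Replicates are numbered 1 to 3 in record order. No label states that the libraries came from separate animals, so the p-values speak only to the spread among these 6 libraries, and that spread may be technical.

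Mitophagy is the removal of mitochondria by autophagy. Pink1 is imported into healthy mitochondria, cut and destroyed, but on depolarised mitochondria it stays at the outer membrane and phosphorylates ubiquitin, and the chains that follow are bound by adaptors such as optineurin (Optn) and p62 (Sqstm1). Bnip3, Bnip3l, Fundc1, Fkbp8 and Bcl2l13 are outer membrane proteins that bind the ATG8 proteins of the autophagosome without need of ubiquitin. Phb2 is an inner membrane protein that can bind ATG8 proteins once the outer membrane ruptures. The tubule cells of the kidney, rich in mitochondria, use both the ubiquitin route and the receptor route.

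Library totals of expected counts ran from 23585040 to 27218091 in Wnt1 kidneys and from 24753191 to 26072455 in control kidneys. Composition differed strongly between the groups: TMM factors, which correct for it, were 1.12 to 1.20 in Wnt1 libraries and 0.849 to 0.879 in control libraries. Over all tested genes the median log2 fold change, Wnt1 over control, was 0.05 with TMM factors and 0.47 when counts were scaled by library totals alone, so every level below is read under both scalings. Principal component 1 (77.97% of the variance) separated the groups, and component 2 (14.72%) set both replicates 3 (-50.1 in Wnt1 and -29.0 in control) apart from the other 4 libraries (16.2 to 22.1). The gene Wnt1 itself had 0, 1 and 0 reads in the Wnt1 libraries and 0 reads in each control library, so the kidney transcript does not check the labels. The summed level of 14 proximal tubule markers was 6840 to 10403 CPM (counts scaled to a common library size) in Wnt1 kidneys and 40019 to 46504 CPM in control kidneys. The 11 macrophage markers summed to 1821 to 2205 CPM in Wnt1 kidneys and 227 to 277 CPM in control kidneys, and no marker of either list was at 0 in every library.

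Pink1 and Bnip3 were the genes of the 9 that edgeR called lower in Wnt1 kidneys under both scalings. With TMM factors, 4 of the 9 were called lower at an edgeR adjusted p under 0.05 (Pink1, Bnip3, Sqstm1 and Bcl2l13), against 18.7% of all tested genes called lower and 22.4% called higher. None was called higher by edgeR, whether the p was adjusted or not, and none by DESeq2. The Wald test of DESeq2 called 5 lower, these 4 and Fkbp8, against 20.7% of 14431 genes. With library totals, 2 were called lower (Pink1 and Bnip3), against 8.92% of all tested genes, and 1 was called higher (Optn), against 44.0% of all tested genes. With TMM factors the 3 Wnt1 libraries lay wholly below the 3 control libraries for 5 of the 9 (the 4 called and Fkbp8), as they did for 25.3% of all tested genes. With library totals they lay wholly below for 2 (Pink1 and Bnip3), against 11.5% of all genes, and wholly above for 1 (Optn), against 50.4%. The median log2 fold change of the 9 was -0.37 with TMM factors and 0.05 with library totals, in each case below the median of all tested genes by about the same distance. In bulk tissue, fewer cells of a type and less RNA per cell cannot be told apart, and the part of the shift in cell type markers in these results was not tested.

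**Figure D1:**
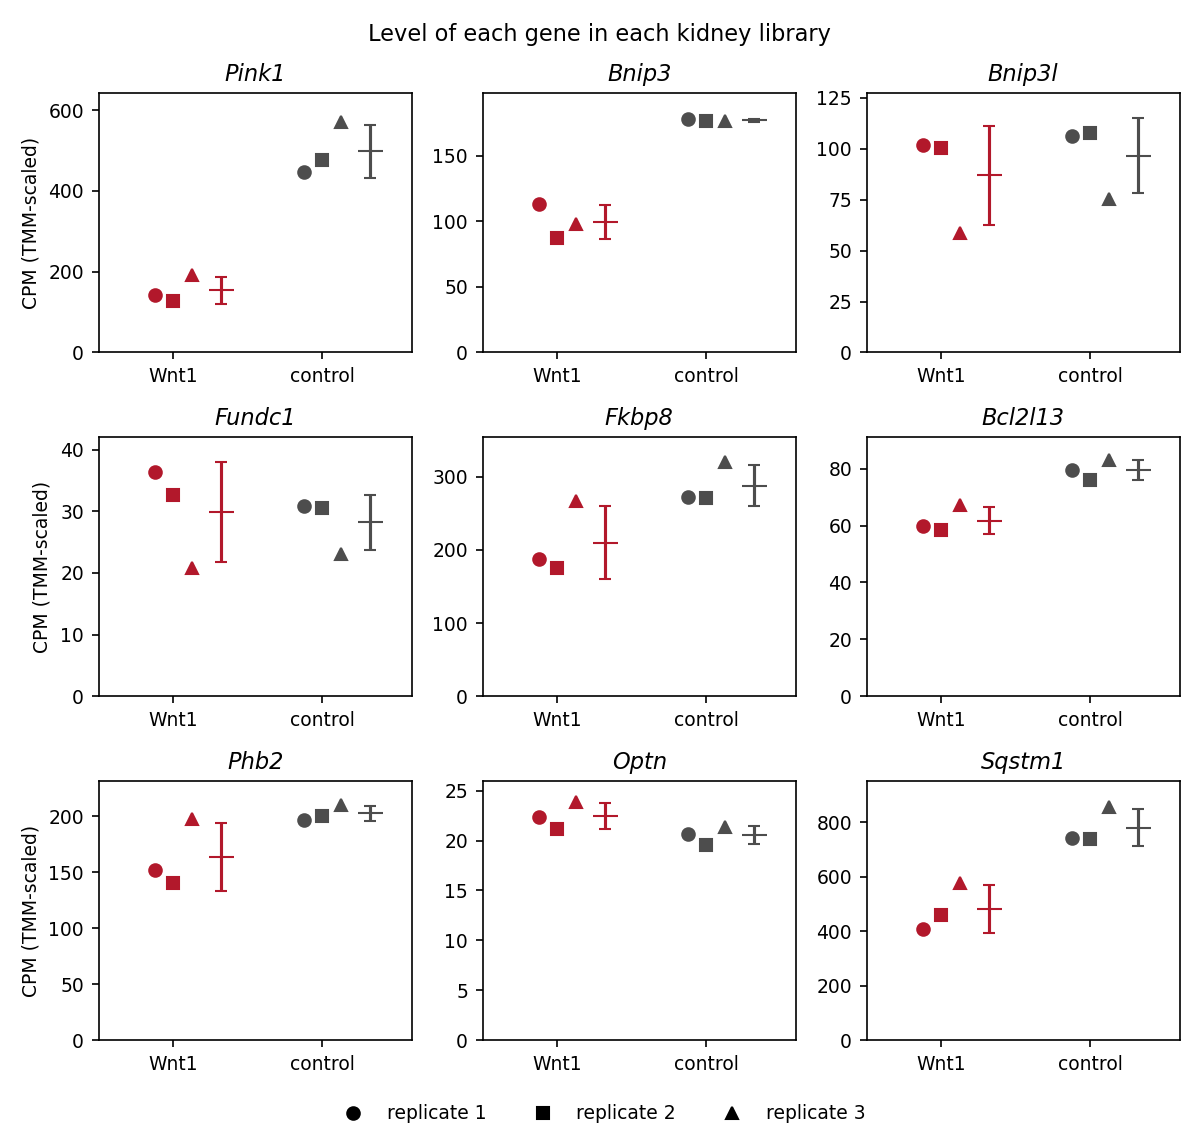
Level of each of the 9 genes in each library, in TMM-scaled CPM on axes that start at 0, with Wnt1 kidneys left of control kidneys; symbols mark the replicate, and the bar beside them gives the mean and SD of 3 libraries. The 3 Wnt1 libraries lie below the 3 control libraries for Pink1, Bnip3, Fkbp8, Bcl2l13 and Sqstm1, and replicate 3 stands apart in Bnip3l and Fundc1.

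Pink1 (ENSMUSG00000028756; GRCm38 chromosome 4, 138313409 to 138326307, minus strand) is the sensor kinase of the ubiquitin route. It had 143, 128 and 192 TMM-scaled CPM in Wnt1 replicates 1, 2 and 3, against 446, 477 and 571 CPM in control replicates 1, 2 and 3. The groups were far apart, and replicate 3 was the highest library in each. Mean levels were 154 ± 33.4 CPM in Wnt1 kidneys and 498 ± 65.2 CPM in control kidneys (SD, n = 3 each), so 31.0% of the control level was left. The log2 fold change was -1.69 ± 0.19 (SE; edgeR adjusted p = 0.000327), and 2.58% of tested genes had a lower one. With library totals, Pink1 had 166, 152.5 and 214 CPM in Wnt1 libraries, against 392, 413 and 485 CPM in control libraries. The groups did not overlap on that scale either, and the log2 fold change was -1.27 ± 0.16 (edgeR adjusted p = 0.000617). On the deposited FPKM scale, which divides by transcript length, Pink1 had 70.1, 64.7 and 90.4 FPKM in Wnt1 libraries, against 166.8, 176.2 and 204.3 FPKM in control libraries. Pink1 was called lower in each of the 18 alternative settings, with log2 fold changes between -1.88 and -1.27.

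The promoter of Pink1 is shown because beta-catenin acts on its targets with TCF/LEF factors. The RefSeq window (GRCm38.p6), cut to the bases before the annotated gene start, covers chr4:138326308-138326546 on the minus strand; capitals mark its single match to the TCF/LEF letters CTTTGA, which reads TCAAAG on this strand and starts 91 bases before the gene start.
Pink1 promoter: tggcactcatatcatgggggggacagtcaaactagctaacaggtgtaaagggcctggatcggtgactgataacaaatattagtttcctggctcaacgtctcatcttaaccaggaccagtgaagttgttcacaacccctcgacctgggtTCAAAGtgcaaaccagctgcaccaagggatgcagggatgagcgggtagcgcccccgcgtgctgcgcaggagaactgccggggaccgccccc
Windows were searched on both strands, and 13.8% of 32851 RefSeq promoter windows held these letters, so a match is common and says nothing of binding. The Pink1 window held no match to TGACGTCA (ATF/CREB; 1.55% of windows), TGACTCA (AP-1; 4.46%), GTAAACA (FOXO; 3.17%), ACGTG (hypoxia-inducible factors; 16.6%) or TGACNNNGC (NRF2; 10.2%). Of the 7 genes whose windows were searched, Pink1 was the 1 with the TCF/LEF letters, and none held the ATF/CREB, AP-1 or FOXO letters.

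Of 16 tested genes for proteins that import, cut or stabilise Pink1, 7 fell with TMM factors, against 18.7% of all tested genes, and none was called higher by edgeR or DESeq2, with or without adjustment in edgeR, against 22.4% by edgeR at an adjusted p. With library totals, 3 fell (Pmpcb, Pmpca and Lonp1), against 8.92% of all tested genes, and 1 rose (Tomm5), against 44.0%. The median log2 fold change was -0.42 with TMM factors and 0.00 with library totals, where that of all tested genes was 0.05 and 0.47. Pmpcb, the catalytic subunit of the matrix peptidase that makes the first cut in imported Pink1, had 90.2, 83.9 and 112 CPM in Wnt1 libraries, against 247, 256 and 295 CPM in control libraries. The groups were far apart, and the log2 fold change of Pmpcb was -1.48 ± 0.15 (edgeR adjusted p = 0.000245). Its partner subunit Pmpca fell to 71.9 ± 8.39 CPM in Wnt1 kidneys, against 127 ± 12.7 CPM in control kidneys (SD, n = 3 each; edgeR adjusted p = 0.0025). Lonp1, a protease of the matrix, fell by 1.04 on the log2 scale (edgeR adjusted p = 0.0014), and the matrix protease subunit Clpp fell by 0.73 (edgeR adjusted p = 0.00539) with TMM factors. Clpp missed the threshold with library totals (log2 fold change -0.31, edgeR adjusted p = 0.0706).

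Among ubiquitin ligases and deubiquitinases that act on mitochondria, more genes fell than rose with TMM factors, but not with library totals. Their median log2 fold change was -0.32 with TMM factors and 0.10 with library totals, where that of all tested genes was 0.05 and 0.47. Of 13 tested, 5 fell with TMM factors (Fbxo7, Mul1, Usp8, Marchf5 and Usp30), against 18.7% of all tested genes, and 1 rose (Usp35), against 22.4%. With library totals Fbxo7 fell and Usp35 rose, against 8.92% and 44.0% of all tested genes, and the other 4 missed the threshold. Fbxo7, an F-box protein that interacts with Pink1, had 35.7, 37.4 and 51.7 CPM in Wnt1 libraries, against 95.2, 91.7 and 94.1 CPM in control libraries. The groups did not overlap, and its log2 fold change was -1.17 ± 0.17 with TMM factors and -0.76 with library totals (edgeR adjusted p = 0.00101 and 0.00436). Usp35, a deubiquitinase found at mitochondria, was a low-level transcript at 3.62, 3.54 and 3.68 CPM in Wnt1 libraries, against 0.828, 1.15 and 1.51 CPM in control libraries. Usp30, the deubiquitinase anchored in the outer membrane that opposes Pink1, had 24.0, 24.9 and 32.6 CPM in Wnt1 libraries, against 38.3, 36.2 and 39.0 CPM in control libraries. Its log2 fold change was -0.48 ± 0.15 with TMM factors (edgeR adjusted p = 0.0384) and -0.06 with library totals (edgeR adjusted p = 0.724). Usp15, which also trims mitochondrial ubiquitin, followed the replicate rather than the group. It had 58.6, 55.3 and 20.04 CPM in Wnt1 libraries, against 44.9, 45.2 and 20.3 CPM in control libraries.

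Of the BH3-like receptors Bnip3 and Bnip3l, both known to be induced by hypoxia, Bnip3 fell in Wnt1 kidneys and Bnip3l was called neither with TMM factors nor with library totals. Bnip3 (ENSMUSG00000078566; GRCm38 chromosome 7, 138890836 to 138909519, minus strand) had 113, 87.5 and 98.2 TMM-scaled CPM in Wnt1 libraries, against 178, 176.5 and 176.3 CPM in control libraries. Control values differed by little, Wnt1 values spread more, and the groups did not overlap. The log2 fold change was -0.83 ± 0.13 with TMM factors (edgeR adjusted p = 0.00177) and -0.41 ± 0.12 with library totals (edgeR adjusted p = 0.0226). The remaining share of the control level therefore depended on the scaling, at 56.2% with TMM factors and 75.2% with library totals. Bnip3 was called lower in each of the 18 alternative settings, between -1.04 and -0.39.

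Bnip3l (ENSMUSG00000022051; GRCm38 chromosome 14, 66985239 to 67008877, minus strand) had 102, 100.2 and 58.7 CPM in Wnt1 libraries, against 106, 108 and 75.3 CPM in control libraries. The groups overlapped, and replicate 3 was the lowest library in each. Its log2 fold change was -0.15 ± 0.24 with TMM factors (edgeR adjusted p = 0.655) and 0.27 ± 0.26 with library totals (edgeR adjusted p = 0.399), so neither scaling gave a call and the sign turned between them. In the alternatives Bnip3l was called in opposite directions, lower with an offset for GC content (-0.39, edgeR adjusted p = 0.0025) and higher with library totals and both replicates 3 left out (0.35, edgeR adjusted p = 0.00391). The FPKM ratio of Bnip3 to Bnip3l within a library holds no library scaling factor, but carries the transcript lengths assigned in that library. It was 2.02 to 3.51 in Wnt1 kidneys and 3.70 to 5.46 in control kidneys. In expected counts, Wnt1 replicate 3 had 2588 for Bnip3 and 1548 for Bnip3l. Control replicate 2 had 3984 and 2430, a lower ratio, so in counts the groups overlapped. A pseudogene of Bnip3l is annotated in GENCODE M21, but Bnip3l carried fractional expected counts in 0 of 6 libraries, so its counts show no split with it. The processed pseudogene Gm18258 overlaps Bnip3 on the opposite strand by 852 bases, and Bnip3 also carried fractional counts in 0 of 6 libraries.

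The promoter of Bnip3 is shown because hypoxia-inducible factors are known to act on it. The RefSeq window (GRCm38.p6), cut in the same way, covers chr7:138909520-138909756 on the minus strand; capitals mark 2 overlapping matches, 1 on each strand, to the letters ACGTG, the outer of which starts 95 bases before the gene start.
Bnip3 promoter: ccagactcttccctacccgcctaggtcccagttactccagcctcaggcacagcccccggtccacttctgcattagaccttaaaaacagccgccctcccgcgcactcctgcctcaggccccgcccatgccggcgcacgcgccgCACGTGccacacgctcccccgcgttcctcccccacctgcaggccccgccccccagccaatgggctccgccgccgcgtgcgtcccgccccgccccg
The same letters stood in the windows of 3 of the 7 genes searched (Bnip3, Phb2 and Fkbp8), against 16.6% of all windows. Of 12 hypoxia-responsive genes tested, 5 fell with TMM factors, against 18.7% of all tested genes. With library totals 2 fell, against 8.92%, and 2 others rose (Slc2a1 and P4ha1), against 44.0%, and the medians were -0.40 and 0.02. Car9, a carbonic anhydrase and a common readout of these factors, had 2.16, 1.56 and 2.24 CPM in Wnt1 libraries, against 11.95, 14.2 and 12.6 CPM in control libraries. Its log2 fold change was -2.70 ± 0.21 (edgeR adjusted p = 7.82e-05), and Egln1, the oxygen-sensing hydroxylase, fell by 0.79 (edgeR adjusted p = 0.00263). Both also fell with library totals.

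Bcl2l13, an outer membrane relative of Bcl2 and a mammalian counterpart of the yeast receptor Atg32, gave an unstable call. It had 59.7, 58.4 and 67.1 TMM-scaled CPM in Wnt1 libraries, against 79.7, 76.1 and 82.9 CPM in control libraries. The groups did not overlap on this scale, and the log2 fold change was -0.37 ± 0.12 (edgeR adjusted p = 0.0413). The call was lost when any library except Wnt1 replicate 3 was left out, with edgeR adjusted p up to 0.154. With library totals it had 69.2, 69.8 and 75.0 CPM in Wnt1 libraries, against 70.0, 65.9 and 70.4 CPM in control libraries, which overlap, and the log2 fold change was 0.05 (edgeR adjusted p = 0.678). Its FPKM values turned the other way, at 30.0, 31.7 and 27.8 FPKM in Wnt1 libraries, against 23.4, 16.8 and 29.8 FPKM in control libraries. CPM per FPKM, which tracks the transcript length the quantification assigned, ran from 2.2 to 2.7 in Wnt1 libraries and from 2.36 to 3.91 in control libraries for Bcl2l13. In Pink1, Bnip3l, Fkbp8, Phb2, Optn and Sqstm1 that quotient varied by at most 1.01 times over the 6 libraries. Bcl2l13 (ENSMUSG00000009112; GRCm38 chromosome 6, 120836212 to 120892842, plus strand) overlaps Bid on the opposite strand by 913 bases; whether the counting was stranded is not stated, and Bid also fell with TMM factors. Fkbp8 overlaps Kxd1 by 233 bases in the same way, and antisense genes are annotated at Bnip3, Phb2 and Optn.

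Fundc1 and Fkbp8 complete the outer membrane receptors, and neither was called under both scalings. Fundc1 (ENSMUSG00000025040; GRCm38 chromosome X, 17556564 to 17572325, minus strand), whose binding to ATG8 proteins is set by its phosphorylation, had 36.3, 32.6 and 20.8 CPM in Wnt1 libraries, against 30.9, 30.6 and 23.1 CPM in control libraries. The groups overlapped with TMM factors (log2 fold change 0.09 ± 0.23, edgeR adjusted p = 0.795) and with library totals (0.51 ± 0.25, edgeR adjusted p = 0.12). Fkbp8 (ENSMUSG00000019428; GRCm38 chromosome 8, 70527724 to 70535328, plus strand), an anchored peptidyl-prolyl isomerase that recruits LC3A, had 188, 175 and 267 CPM in Wnt1 libraries, against 272, 270.4 and 320 CPM in control libraries. Those groups did not overlap, but Wnt1 replicate 3 came close to the control libraries, and the log2 fold change of -0.45 ± 0.18 missed the threshold (edgeR adjusted p = 0.0823). The Wald test of DESeq2 called it lower with all 6 libraries (-0.49, adjusted p = 0.0432), and so did edgeR without Wnt1 replicate 3 (log2 fold change -0.67, adjusted p = 0.00276); with library totals and all 6 libraries it was -0.04 (edgeR adjusted p = 0.85).

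Of 8 tested kinases and phosphatases that act on these receptors, 2 fell with TMM factors, Ulk1 and Csnk2b, against 18.7% of all tested genes. With library totals 3 rose (Src, Csnk2a2 and Ppp1cc), against 44.0%, so both counts were close to those shares. The medians were -0.16 and 0.26, against 0.05 and 0.47 for all tested genes. Ulk1, the autophagy kinase that phosphorylates Fundc1, had 66.1, 62.2 and 86.6 CPM in Wnt1 libraries, against 109, 103 and 115 CPM in control libraries. Its log2 fold change was -0.60 ± 0.15 (edgeR adjusted p = 0.0155) with TMM factors and -0.19 (edgeR adjusted p = 0.26) with library totals.

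Phb2 (ENSMUSG00000004264; GRCm38 chromosome 6, 124712336 to 124716950, plus strand), a prohibitin of the inner membrane that is exposed when the outer membrane ruptures, had 152, 140 and 197 CPM in Wnt1 libraries, against 197, 200.4 and 210 CPM in control libraries. Wnt1 replicate 3 overlapped the control range, and the log2 fold change was -0.31 ± 0.15 with TMM factors and 0.10 ± 0.13 with library totals (edgeR adjusted p = 0.141 and 0.515). Without Wnt1 replicate 3 it was called lower with TMM factors (log2 fold change -0.47, edgeR adjusted p = 0.00495). Phb, its partner in the prohibitin ring, fell by 0.61 on the log2 scale with TMM factors (edgeR adjusted p = 0.0345) and was not called with library totals (-0.20, edgeR adjusted p = 0.343). Phb belongs to 6 other mitochondrial proteins that bind ATG8 or recruit adaptors, of which 4 fell with TMM factors (Chdh, Nipsnap1, Nlrx1 and Phb), against 18.7% of all tested genes. With library totals 3 of these fell (Chdh, Nipsnap1 and Nlrx1), against 8.92%, and Fundc2 rose, against 44.0%; the list's median was -0.75 with TMM factors and -0.33 with library totals. Nipsnap1, which recruits adaptors to damaged mitochondria, had 71.1, 59.9 and 82.2 CPM in Wnt1 libraries, against 147, 149 and 169 CPM in control libraries. Nlrx1, a matrix protein with an ATG8-binding motif, fell by 1.02 with TMM factors and by 0.61 with library totals.

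Per transcript length, the adaptor Sqstm1 was the most and the adaptor Optn the least abundant of the 9 in both groups. Sqstm1 (p62; ENSMUSG00000015837; GRCm38 chromosome 11, 50199366 to 50210827, minus strand) had 407, 460 and 578 TMM-scaled CPM in Wnt1 libraries, against 743, 740 and 858 CPM in control libraries. The groups did not overlap, and the log2 fold change was -0.69 ± 0.16 (edgeR adjusted p = 0.0104), a call kept when any 1 library was left out (edgeR adjusted p 0.00135 to 0.0409). With library totals Sqstm1 had 472, 550.0 and 647 CPM in Wnt1 libraries, against 653, 640.4 and 728 CPM in control libraries. The groups then overlapped, and the log2 fold change was -0.28 ± 0.14 (edgeR adjusted p = 0.131). Sqstm1 carried fractional expected counts in 6 of 6 libraries, and its gene overlaps Mrnip on the opposite strand by 750 bases.

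Optn (ENSMUSG00000026672; GRCm38 chromosome 2, 5020642 to 5064051, minus strand) had 22.4, 21.2 and 23.8 TMM-scaled CPM in Wnt1 libraries, against 20.7, 19.6 and 21.3 CPM in control libraries. The groups overlapped, and the log2 fold change was 0.13 ± 0.13 (edgeR adjusted p = 0.46). With library totals it had 25.95, 25.3 and 26.6 CPM in Wnt1 libraries, against 18.2, 16.96 and 18.1 CPM in control libraries. The groups then did not overlap, and Optn was called higher (0.55 ± 0.11, edgeR adjusted p = 0.00573), against a median of 0.47 for all tested genes on that scale. In FPKM, Optn was 9.997 ± 0.231 in Wnt1 kidneys and 6.83 ± 0.240 in control kidneys (SD, n = 3 each).

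**Figure D2:**
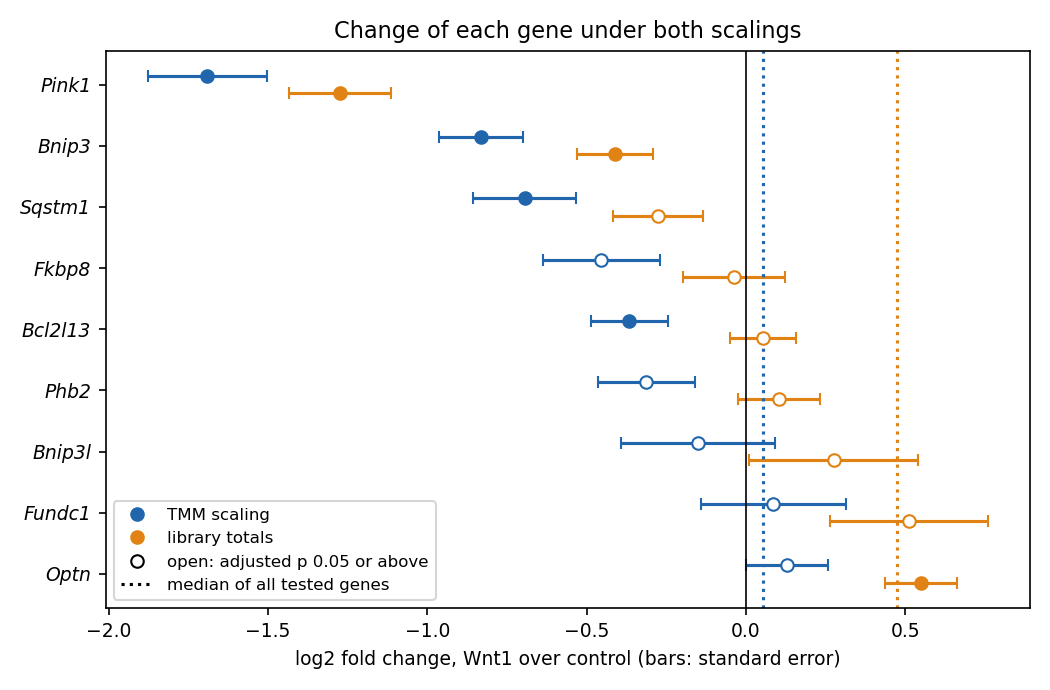
Log2 fold change of each gene, Wnt1 over control, with its standard error, for TMM factors and for library totals; filled points passed an edgeR adjusted p under 0.05 and dotted lines give the median of all tested genes. Pink1 and Bnip3 are filled and negative under both scalings, Sqstm1 and Bcl2l13 under TMM factors, and Optn is filled and positive under library totals.

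Other adaptors of the same kind gave 3 lower calls of 8 with TMM factors, against 18.7% of all tested genes. They were Nbr1, Tollip and Calcoco1, and with library totals neither an adjusted nor an unadjusted edgeR p under 0.05 was reached by any of the 8, where 44.0% of all tested genes were called higher and 8.92% lower. The medians were -0.23 with TMM factors and 0.19 with library totals. Nbr1, a ubiquitin-binding relative of p62, had 166, 179 and 131 CPM in Wnt1 libraries, against 290.4, 274 and 227 CPM in control libraries.

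The ATG8 family, which the receptors and adaptors bind, fell in 4 of its 5 tested genes with TMM factors, against 18.7% of all tested genes, and in 1 with library totals, against 8.92%. Gabarapl1 had 245, 232 and 292 CPM in Wnt1 libraries, against 939.95, 763 and 980.2 CPM in control libraries. The groups were far apart under both scalings, with log2 fold changes of -1.80 ± 0.16 and -1.39 (edgeR adjusted p = 0.000128 and 0.000216). Map1lc3a, the LC3A form that Fkbp8 recruits, had 49.7, 53.0 and 71.5 CPM in Wnt1 libraries, against 91.6, 102 and 117 CPM in control libraries. Its log2 fold change was -0.83 ± 0.18 with TMM factors (edgeR adjusted p = 0.00649) and -0.42 with library totals (edgeR adjusted p = 0.0549). Gabarapl2 and Map1lc3b fell by 0.51 and 0.45 with TMM factors and were at -0.09 and -0.03 with library totals. Gabarap had 339, 332 and 435 CPM in Wnt1 libraries, against 401, 416 and 476 CPM in control libraries, and was not called (-0.23 ± 0.15, edgeR adjusted p = 0.272).

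Mitochondrial content itself was not measured, and transcripts of 11 outer membrane, inner membrane and matrix proteins were described beside these genes. With TMM factors 6 of them fell, against 18.7% of all tested genes. With library totals 3 fell (Atp5a1, Cox4i1 and Hspa9), against 8.92%, and Vdac3 rose, against 44.0%, and the medians were -0.73 and -0.31. The 6 lay between -0.97 and -0.45 with TMM factors, against -1.69 for Pink1, and the difference between genes was not tested. Cox4i2, at a mean of 1.05 CPM in control kidneys, was at -1.18 and was not called (edgeR adjusted p = 0.0603). Atp5a1, a subunit of ATP synthase, fell by 0.97 on the log2 scale with TMM factors (edgeR adjusted p = 0.0033) and Cox4i1, of cytochrome c oxidase, by 0.94 (edgeR adjusted p = 0.0049). Vdac1, the outer membrane channel, had 469, 408 and 565 CPM in Wnt1 libraries, against 771, 779 and 917 CPM in control libraries.

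**Figure D3:**
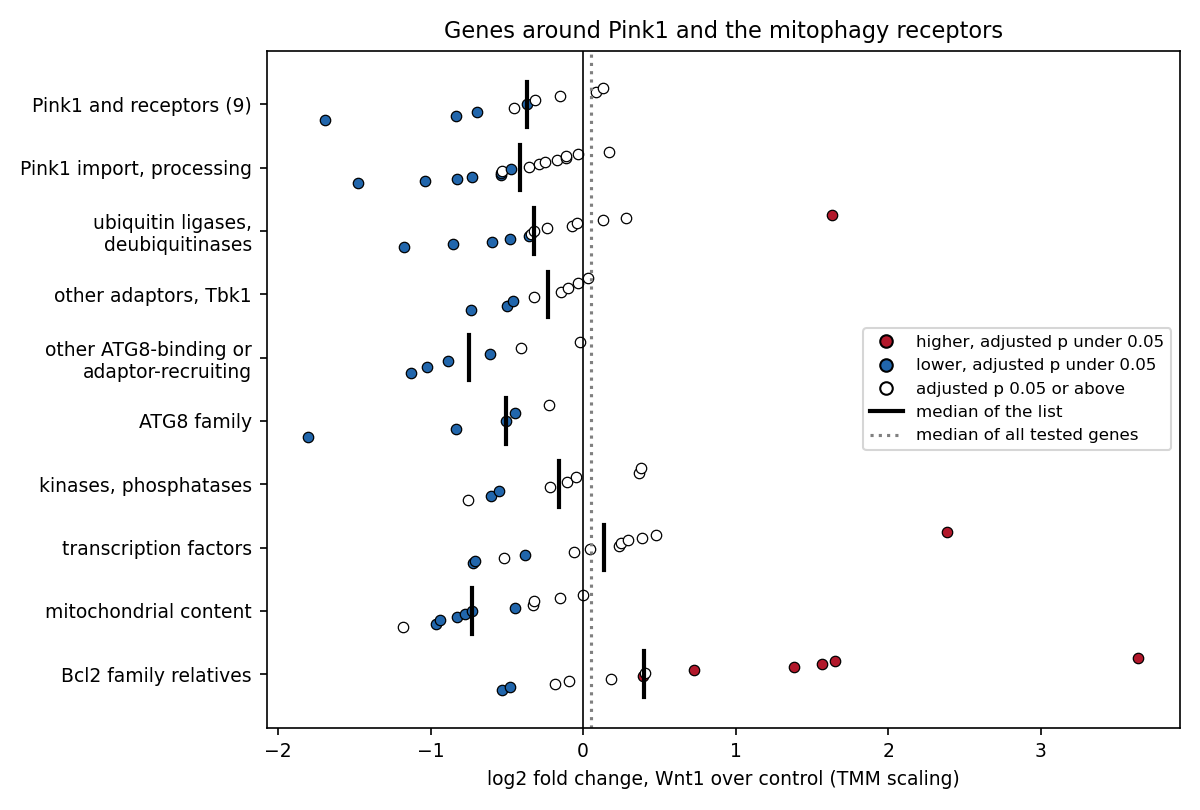
Log2 fold change of each gene in the lists around the 9, Wnt1 over control with TMM factors, 1 row a list; filled points passed an edgeR adjusted p under 0.05, the black tick is the list's median and the dotted line the median of all tested genes (0.05). Pink1 and Gabarapl1 lie furthest to the left in their rows, and filled points to the right of 0 occur for Usp35, Atf3 and 6 Bcl2 relatives.

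A ratio of 2 genes within a library is free of the scaling that moved the results above. In FPKM it still carries the transcript lengths assigned in that library. All 36 pairs of the 9 genes were compared as log2 FPKM ratios, and 21 did not overlap between Wnt1 and control kidneys. Over all pairs of 14261 tested genes with an FPKM above 0 in every library, 56.3% did not overlap, so the count of 21 is near that share and shows nothing particular to the 9. Each of these gave the smallest p that an exact permutation test of 3 against 3 libraries allows, two-sided (p = 0.1; 0.171 adjusted over the 36 pairs), so no pair could pass the threshold. All 8 pairs that hold Pink1 were among the 21, and Pink1 was lower relative to its partner in each. These pairs share 1 gene, and the ratio of Pink1 to any other tested gene was wholly lower in Wnt1 kidneys for 90.9% of 14260 genes. Pink1 was 0.517 to 0.550 times Fkbp8 in Wnt1 libraries and 1.19 to 1.29 times Fkbp8 in control libraries. Against Sqstm1 it was 0.246 to 0.311 times in Wnt1 libraries and 0.540 to 0.591 times in control libraries. Its ratio to Bnip3 had the narrowest gap, 0.760 to 1.27 in Wnt1 libraries and 1.44 to 1.90 in control libraries. Bnip3 did not overlap in 6 of its 8 pairs; its ratios to Fkbp8 and Sqstm1 overlapped. Over all other tested genes, 76.9% of the ratios of Bnip3 did not overlap.

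**Figure D4:**
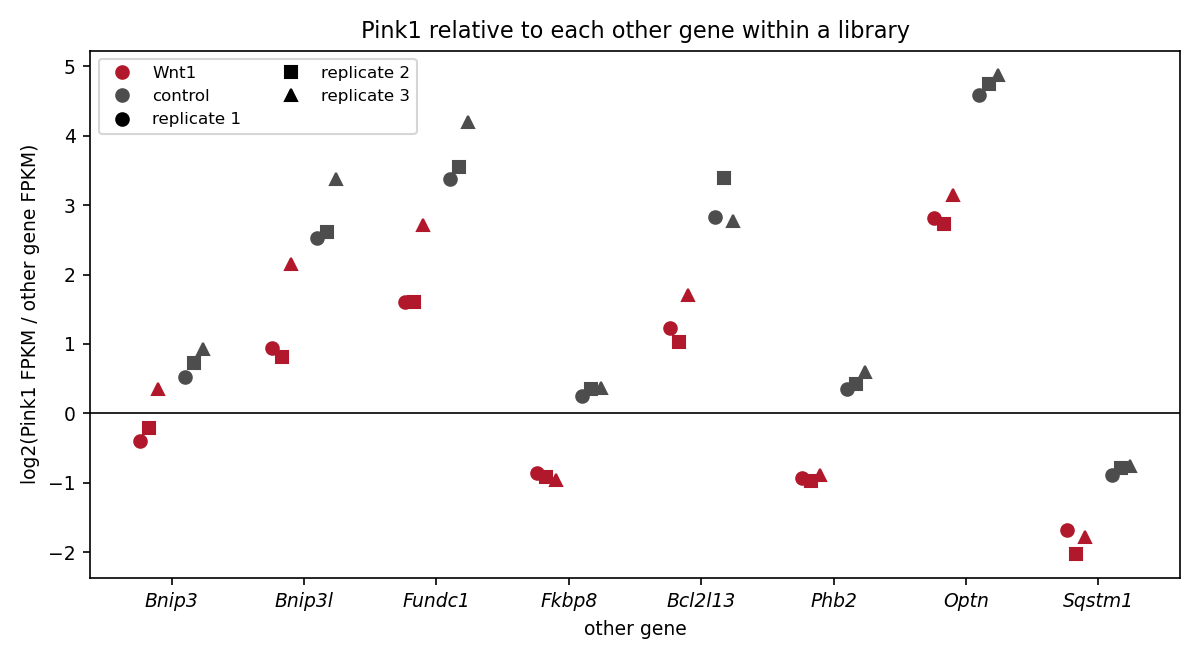
Log2 ratio of Pink1 FPKM to the FPKM of each of the other 8 genes within a library, with Wnt1 libraries left of control libraries and symbols for the replicate. For each gene the 3 Wnt1 points lie below the 3 control points, and the ratios to Fkbp8, Phb2 and Bnip3 lie below 0 in at least 2 Wnt1 libraries and above 0 in the 3 control libraries.

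Levels per transcript length also changed their order. In Wnt1 kidneys the mean FPKM ran from Sqstm1 (266.1) through Phb2 (142.6), Fkbp8 (141.6), Bnip3 (79.3), Pink1 (75.1), Bnip3l (31.2), Bcl2l13 (29.8) and Fundc1 (19.4) to Optn (9.997). In control kidneys it ran from Sqstm1 (319.4) through Pink1 (182.4), Fkbp8 (145.7), Phb2 (132.7), Bnip3 (109.9), Bnip3l (25.8), Bcl2l13 (23.4) and Fundc1 (14.1) to Optn (6.83). Pink1 was thus the fifth of the 9 in Wnt1 kidneys, where its range overlapped that of Bnip3, and the second in control kidneys, where it overlapped neither Sqstm1 nor Fkbp8. Pink1 made up 9.37%, 8.62% and 10.2% of the summed FPKM of the 9 in Wnt1 libraries, against 17.8%, 19.1% and 20.04% in control libraries. The share of Sqstm1 was 33.4 ± 2.8% in Wnt1 kidneys and 33.2 ± 0.594% in control kidneys (SD, n = 3 each), which overlap.

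Genes with a pattern like the called ones were sought by the root mean square difference of log2 CPM over the 6 libraries among 13128 genes. Among the nearest to Pink1 were Gatb (0.0401), a subunit of the mitochondrial glutaminyl-tRNA amidotransferase, and Fbxo36 (0.0507). Nearest to Bnip3 were Epb41 (0.0465), Pex7 (0.0525) and Immt (0.0552), which shapes the inner membrane. Sqstm1 was nearest to Npepl1 (0.0426), Naxd (0.0426) and Vps9d1 (0.0488), and Bcl2l13 to Mterf4 (0.0184), Kpna6 (0.0258) and Sirt2 (0.0280).

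Transcription factors and partners of such factors, 12 tested genes in all, were listed as possible regulators of these genes, and their action on them was not tested. With TMM factors 3 fell (Foxo1, Epas1 and Foxo3), against 18.7% of all tested genes, and Atf3 rose, against 22.4%. With library totals 5 rose (Atf3, Atf4, Tfe3, Nfe2l2 and Ctnnb1), against 44.0%. On that scale none was called lower by edgeR, with 2 lower at an unadjusted p, against 8.92% called at an adjusted p. The medians were 0.14 and 0.56, against 0.05 and 0.47 for all tested genes, so the higher calls with library totals were near the share of all genes. Atf3, the stress factor in the series title, had 10.4, 16.9 and 11.7 CPM in Wnt1 libraries, against 1.15, 2.88 and 3.42 CPM in control libraries (log2 fold change 2.38 ± 0.39, edgeR adjusted p = 0.00226). Epas1, the hypoxia-inducible factor 2 alpha subunit, had 119.7, 128 and 142 CPM in Wnt1 libraries, against 219, 202 and 216 CPM in control libraries. Foxo3, known to act on Bnip3 in muscle, had a log2 fold change of -0.38 ± 0.12 with TMM factors (edgeR adjusted p = 0.0374) and 0.04 with library totals (edgeR adjusted p = 0.78). Beta-catenin (Ctnnb1) had 604, 635 and 703 CPM in Wnt1 libraries, against 642, 605 and 636 CPM in control libraries, which overlap with TMM factors. With library totals Ctnnb1 was called higher (log2 fold change 0.46, edgeR adjusted p = 0.00746), against a median of 0.47 for all tested genes. Hif1a followed replicate 3 in both groups, at 134, 132 and 65.8 CPM in Wnt1 libraries, against 96.7, 90.4 and 51.6 CPM in control libraries.

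Replicate 3 of each group deviated from replicates 1 and 2 in step with the GC content of the transcript. Bnip3l, with 41.9% GC in its longest coding transcript, was lower in replicate 3 by 0.78 in Wnt1 kidneys and 0.51 in control kidneys on the log2 CPM scale. Fkbp8, with 63.0% GC, was higher in replicate 3 by 0.56 in Wnt1 kidneys and 0.24 in control kidneys. Bnip3, with 41.6% GC, did not follow, at -0.02 in Wnt1 kidneys and -0.01 in control kidneys. Over 14352 genes the Pearson correlation of GC content with this deviation was 0.691 in Wnt1 kidneys and 0.506 in control kidneys; it is across genes, which share library and depth and are not independent. Its cause was not tested. Without both replicates 3, 6 of the 9 were called lower with TMM factors (Pink1, Bnip3, Sqstm1, Fkbp8, Phb2 and Bcl2l13), against 30.4% of 14563 genes. With library totals and both left out, 3 were called lower (Pink1, Bnip3 and Sqstm1), against 13.0%, and 3 higher (Optn, Fundc1 and Bnip3l), against 57.1%. Pink1 was at -1.77 and -1.34 in these fits (edgeR adjusted p = 1.21e-05 with TMM factors). With an offset for GC content, added after seeing the data, 7 of the 9 were called lower, all but Fundc1 and Optn, against 27.3% of 14352 genes.

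**Figure D5:**
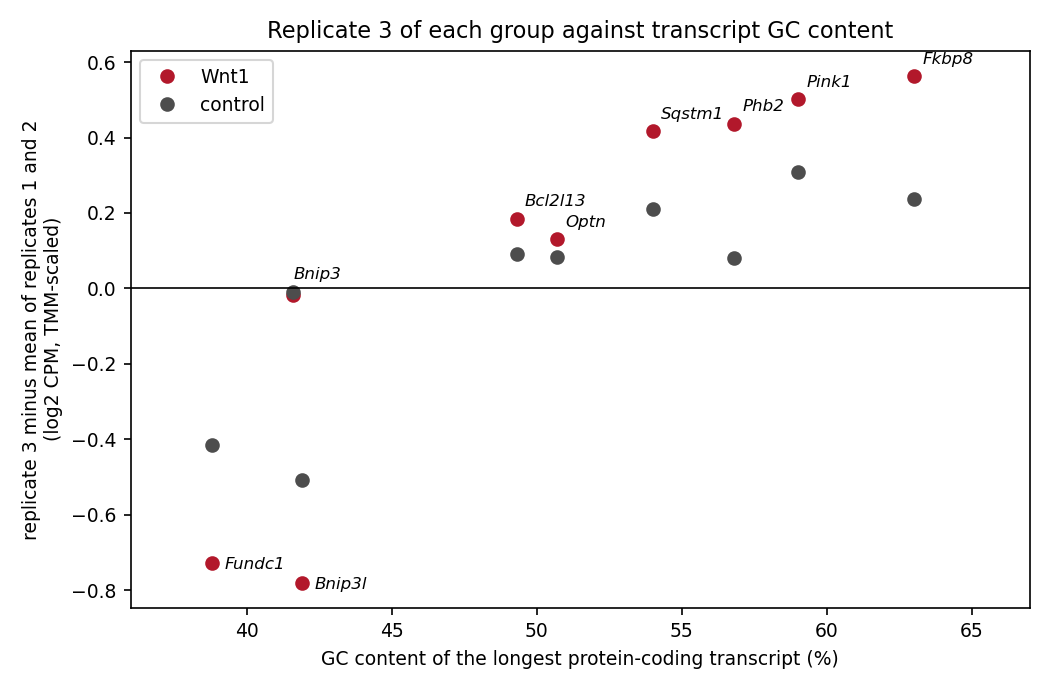
Replicate 3 minus the mean of replicates 1 and 2, in log2 CPM with TMM factors, against the GC content of each gene's longest protein-coding transcript, for Wnt1 and control kidneys. Fundc1 and Bnip3l lie below 0 in both groups, the genes above 49% GC lie above 0 in both, and the Wnt1 points lie further from 0 than the control points.

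The deposited pathway and ontology terms did not cover the 9 evenly. The KEGG mitophagy term was attached to 6 of them, but not to Pink1, Fkbp8 or Phb2, and a Gene Ontology mitophagy term to 7, but not to Fkbp8 or Bcl2l13. Of 69 tested genes with the KEGG term, 22 fell and 9 rose with TMM factors, against 18.7% and 22.4% of all tested genes. With library totals 2 fell and 19 rose, against 8.92% and 44.0%, so falls and rises each made up a smaller share of the term than of all genes. The medians were -0.20 and 0.22, against 0.05 and 0.47 for all tested genes. Gabarapl1 and Bnip3 were the 2 that fell on both scales.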

How the data were processed

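Kidney messenger RNA of 6 mouse libraries was enriched on oligo(dT) beads and sequenced on a NovaSeq instrument, per the labels' protocols. Per the submitters' processing notes, the tools were RSEM, HISAT2, StringTie 1.3.1, Bowtie2 2.2.8 and fastp 0.18.0, with mm10; the role of each, the annotation and any strand setting were not given in the sources. The authors deposited an expected count per gene and library, RSEM's kind of fractional read estimate (9.02% were not whole within 1e-06). They also deposited FPKM values, which divide by transcript length and by the library total. No molecular identifiers are mentioned, so reads are not independent molecules.

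Expected counts were rounded and compared, Wnt1 against control, over 14432 genes that passed filterByExpr, with the robust two-sided quasi-likelihood test of edgeR 4.0.16 in R 4.3.3, TMM factors and Benjamini-Hochberg adjustment; called means an adjusted p under 0.05. Standard errors come from the unshrunken coefficient and the F statistic. Gene coordinates come from GENCODE M21 (GRCm38, which mm10 names) and promoter windows from RefSeq (GRCm38.p6); 22128 gene identifiers matched. Windows of 7 of the 9 genes were used; Bnip3l and Fundc1 were not searched.

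The 9 genes and all gene lists were chosen with earlier results of these data known, so their counts and medians are descriptions. By rule, up to 4 called genes of a list with the smallest p were named, and ATG8 genes, ligases, deubiquitinases and transcription factors at any value; genes that make up a count of 5 or fewer were named after their values were seen. The 3 nearest genes had a mean CPM of at least 1 (prior count 2) and named symbols. Alternatives were library totals, DESeq2 1.42.0 and its size factors, no filter, a stricter filter (every library of a group at a CPM of 1 or more), unrounded counts, limma 3.58.1 on log2(FPKM + 1) filtered at 1 FPKM or unfiltered, the same on log2(FPKM + 0.1), filtered, and leaving out libraries. An offset for transcript GC content was added after seeing the data. The edgeR fits with TMM factors and with library totals, the DESeq2 test and limma were also run on simulated counts. Planted changes there were few and balanced in direction, so those runs do not bear on which scaling suits these data. The GC offset and the fits that leave out libraries were not simulated.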

Additional observations from a re-analysis of the deposited data

How the results depend on the processing

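Pink1 and Bnip3 were called lower in all 18 alternatives. With library totals and with limma on log2(FPKM + 1), on log2(FPKM + 0.1) and on log2(FPKM + 1) without a filter, 2 of the 9 genes were called lower in place of 4, and 1 higher in place of 0. Over all genes, these FPKM settings called 9.89%, 9.86% and 7.07% lower and 41.1%, 41.0% and 33.1% higher. The DESeq2 Wald test called 5 lower, against 20.7%. The GC offset gave 7 lower, against 27.3% of 14352 genes. Leaving out both replicates 3 gave 9096 calls over all genes in place of 5936 and 32 ratio pairs that did not overlap in place of 21, where 81.7% of all gene pairs did not overlap in place of 56.3%; leaving libraries out can only hold or raise such a count. With library totals as well it gave 10212 calls and 3 genes of the 9 higher. Leaving out 1 library gave 3 to 6 lower, where 12.2% to 27.2% of all genes were called lower, and 4518 to 8142 calls, with the highest counts without Wnt1 replicate 3, and 21 to 29 pairs. The sign turned in 4 genes. Bcl2l13 was at 0.053 with library totals, 0.37, 0.39 and 0.37 in the FPKM settings in the order given, and 0.032 with library totals and both replicates 3 left out. Phb2 was at 0.10 with library totals and at 0.092 in each FPKM setting. Bnip3l was at 0.27 with library totals, 0.24 in each FPKM setting, 0.35 with library totals and both replicates 3 left out, and -0.28 to 0.063 when 1 library was left out. Fundc1 was at -0.31 with the GC offset and at -0.078 to 0.29 when 1 library was left out. The cause was not tested beyond the settings themselves. Of 756 counts of calls in gene lists under alternatives, 597 stayed within 1.5 times the count given. No paired analysis was possible because replicate numbers were assigned in record order and the labels carry no pairing. With 3 libraries a group, a difference of the size of the standard error of Bnip3l or Fundc1 was not detectable, and FPKM carries the transcript length assigned in each library.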

Other observations

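Relatives of the BH3-like receptors were measured beside them. Of 12 other Bcl2 family genes tested, 6 rose and 2 fell with TMM factors, against 22.4% and 18.7% of all tested genes, with a median log2 fold change of 0.40. With library totals 8 rose, against 44.0%, with a median of 0.82, where that of all tested genes was 0.47. Bcl2a1b, an anti-apoptotic member of immune cells, had 14.7, 17.7 and 13.5 CPM in Wnt1 libraries, against 1.20, 1.24 and 1.23 CPM in control libraries. Its log2 fold change was 3.64 ± 0.20 (edgeR adjusted p = 2.68e-05), in kidneys where all 11 macrophage markers rose; the part of those cells was not tested, and near-identical copies of this gene may share its reads. Bak1, a pore-forming effector of the mitochondrial outer membrane, had 47.2, 53.5 and 66.1 CPM in Wnt1 libraries, against 20.7, 19.3 and 24.0 CPM in control libraries (1.38 ± 0.17, edgeR adjusted p = 0.000494). The BH3-only gene Bbc3 rose by 1.65 on the log2 scale with TMM factors, and Bcl2l2, a pro-survival member, fell by 0.53 and was at -0.11 with library totals.

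Genes known to respond to NRF2, a factor that p62 can activate by binding its inhibitor, did not move one way. Of 9 tested, 3 rose and 2 fell with TMM factors (median 0.11), against 22.4% and 18.7% of all tested genes (median 0.05). With library totals 6 rose and 1 fell (median 0.53), against 44.0% and 8.92% of all tested genes (median 0.47). Gclc, the catalytic subunit of glutamate-cysteine ligase, had 187, 205 and 176 CPM in Wnt1 libraries, against 299.6, 343 and 447 CPM in control libraries. Srxn1, which repairs peroxiredoxins, had 105, 106 and 108 CPM in Wnt1 libraries, against 74.2, 75.3 and 81.2 CPM in control libraries.

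Other cell type lists moved with the groups, with TMM factors, when 18.7% of all tested genes fell and 22.4% rose. Of 10 distal nephron markers 6 fell, with a median of -1.10, all 9 fibroblast and mural markers rose (median 1.78), all 8 tubule injury markers rose (median 5.61), and 3 of 5 endothelial markers fell (median -0.53). With library totals 5 distal nephron markers (median -0.68) and 1 endothelial marker (median -0.11) fell, against 8.92% of all tested genes. Of 7 neutrophil markers, 4 passed the low-count filter, and these 4 rose. S100a8, S100a9 and Cxcr2 had control means of 0.089, 0.12 and 0.076 CPM. They passed only through their Wnt1 level, so that count was largely set by the filter. Retnlg, Mpo and Elane were not tested, with Wnt1 means of 0.433, 0 and 0 CPM. T and B cell markers rose in 4 of 5 tested genes of 7. Summed levels of either list were at most 20.7 CPM in Wnt1 kidneys and 6.66 CPM in control kidneys. The 1 skeletal muscle, adrenal and fat marker tested was not called by edgeR or DESeq2 at an adjusted p, nor by edgeR at an unadjusted p. The fall of Pink1 with TMM factors, -1.69, lay between the medians of the distal nephron list and the proximal tubule list (-2.27, with 13 of 14 lower).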
